A study of Saccharomyces cerevisiae BY4741 with 5 samples.

Results

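The nuclear genes of the yeast respiratory chain and ATP synthase were followed through 5 CRAC libraries of the RNA-binding protein Ssd1. Members were the rows of the transcript count table whose locus had a symbol made of ATP, COX, QCR or SDH and a number, together with CYT1, COR1, RIP1, CYC1 and CYC7. This gave 59 of the 5090 transcripts: 9 for complex II, 9 for complex III, 2 for cytochrome c, 20 for complex IV and 19 for ATP synthase. Of these, 38 encode structural subunits, 20 assembly or maturation factors, and 1 (SDH9) a minor isoform of the SDH1 flavoprotein. The mitochondrially encoded COX1, COX2, COX3, ATP6 and ATP8 were not analysed here. In CRAC, RNA is cross-linked to a tagged protein with UV light in living cells, and the RNA that is recovered with the protein is sequenced. All strains were Saccharomyces cerevisiae BY4741, grown to exponential phase in a synthetic glucose medium without tryptophan. Ssd1 carried a C-terminal His, TEV and Protein A (HTP) tag at its own locus in 2 independent clones, numbered 3 and 4. The tag was followed by the SSD1 terminator of Kluyveromyces lactis and a URA3 marker. Each clone gave 1 library at 30°C and 1 library after 16 min at 42°C. The single control library came from the untagged strain at 30°C, so no untagged library was exposed to 42°C. Values for a temperature are given with clone 3 first and clone 4 second.

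The respiratory chain sits in the inner mitochondrial membrane and passes electrons from reduced substrates to oxygen. Succinate dehydrogenase (complex II) takes electrons from succinate, cytochrome bc1 (complex III) hands them to the small soluble carrier cytochrome c, and cytochrome c oxidase (complex IV) reduces oxygen. ATP synthase uses the proton gradient to make ATP. Most subunits are made in the cytoplasm from nuclear transcripts and imported, and budding yeast growing on glucose ferments and keeps many of these genes repressed. Ssd1 is a cytoplasmic protein related to the RNase II nucleases but without nuclease activity, and is best known for binding transcripts of cell wall proteins.

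The Ssd1–HTP libraries held 111824 to 413502 counts and the control held 3921. A library with 0 counts on a transcript allows at most 3 counts, which is 17.0 and 26.8 CPM (counts scaled to the library total) at 30°C, 17.7 and 7.26 CPM at 42°C and 765 CPM in the control. Clones agreed less closely on the members at 30°C (Pearson r of 0.461 across the 59 transcripts, on the log10 scale of length-corrected density with a floor of 10) than at 42°C (r of 0.776). The same values over all 5090 transcripts were 0.659 and 0.764. These correlations are across genes, which are not independent replicates. At 30°C, 17 members had counts in only 1 of the 2 clones, against 4 members at 42°C. Of the BY4741 marker genes, LEU2 and URA3 had 0 counts in all 5 libraries, MET17 had 1 count in the 42°C library of clone 4, and HIS3, of which BY4741 keeps a part, had 0 to 20 counts. The SSD1 transcript held 0.0537% and 0.0724% of counts at 30°C, 0.123% and 0.0730% at 42°C, and 0.0510% (2 counts) in the control.

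The 59 members together took a larger share of the counts at 42°C than at 30°C in both clones. They held 0.891% and 0.908% of all counts at 30°C (mean 0.899% ± 0.0121, SD, n = 2) and 1.40% and 1.29% at 42°C (mean 1.34% ± 0.0807, SD, n = 2). The ratio of the means was 1.49, and it was 1.57 within clone 3 and 1.42 within clone 4. Without the 22 members whose transcript interval overlaps another interval of the table, the ratio was 1.26. The control share was 0.995% (39 of 3921 counts, exact 95% interval 0.708% to 1.36%), which overlapped the range of the Ssd1–HTP libraries. The levels of the mRNAs themselves were not analysed here, so a larger share from more mRNA and a larger share from more Ssd1 on each mRNA cannot be told apart.

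The complexes differed in how far their shares moved. Complex II held 0.0384% and 0.0626% at 30°C and 0.199% and 0.132% at 42°C, a ratio of 3.28 that ran from 2.11 in clone 4 to 5.19 in clone 3. This ratio includes SDH4, SDH5, SDH6 and SDH7, whose intervals overlap others. Among its members without overlap, the ratios of mean CPM were 1.67 for SDH1, 1.86 for SDH2, 2.26 for SDH3 and 1.19 for SDH9. SDH8, also without overlap, had a ratio of 26.9 from 1 and 0 counts at 30°C. Complex III held 0.251% and 0.190% at 30°C and 0.438% and 0.392% at 42°C, a ratio of 1.88. Complex IV held 0.115% and 0.138% at 30°C and 0.213% and 0.191% at 42°C, a ratio of 1.60. ATP synthase, the complex with the most counts, held 0.468% and 0.503% at 30°C and 0.530% and 0.545% at 42°C, a ratio of 1.11. Leaving out ATP2, its transcript with the most counts, brought that ratio to 0.975. Cytochrome c held 0.0175% and 0.0152% at 30°C and 0.0206% and 0.0266% at 42°C, a ratio of 1.44 that came from CYC7, since CYC1 alone had a ratio of 0.117. In each of the 5 groups both 42°C libraries lay above both 30°C libraries. Within complexes the assembly factors of complex II (ratio 7.07) and complex IV (2.12) lay above the ratios of their subunits (2.55 and 1.46), whereas for ATP synthase they lay below (0.912 and 1.14). Within clones this order held in both for complex II (5.76 and 12.2 against 4.64 and 1.62). It turned in clone 3 for complex IV (1.67 against 1.92) and in clone 4 for ATP synthase (1.21 against 1.07). These are sums of a few transcripts each with 2 libraries per temperature, and no test was made on them.

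**Figure D1:**
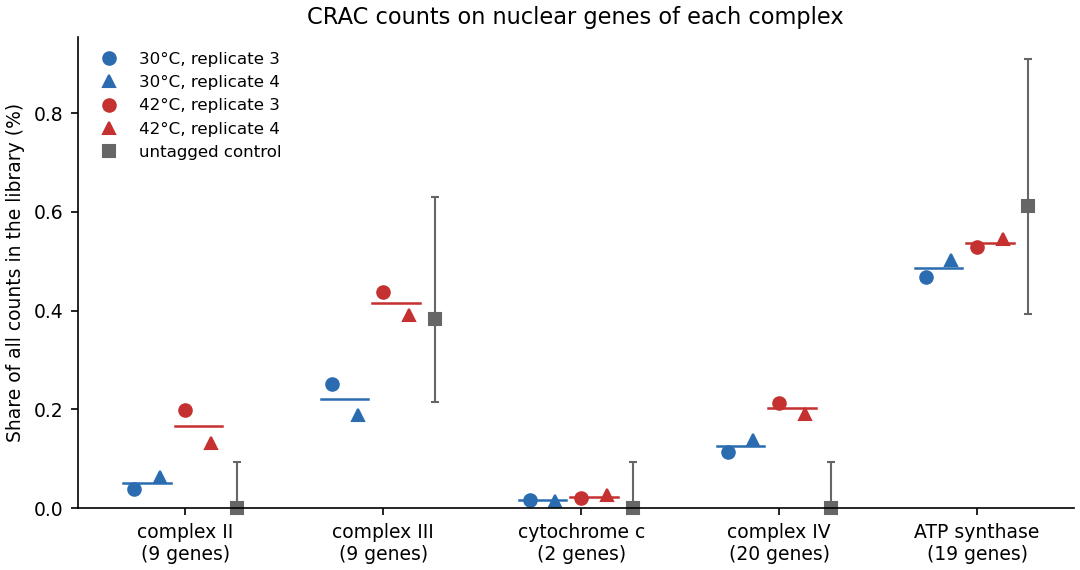
Share of all counts in a library (percent, linear axis) that fell on the nuclear genes of each complex. Circles are clone 3 and triangles clone 4 (replicates 3 and 4), horizontal lines are means of 2 libraries, and grey squares are the untagged control with its exact 95% counting interval. In every group both 42°C points lie above both 30°C points, and the interval of the control spans 0.214% to 0.630% for complex III.

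Transcript by transcript, no member passed the test between temperatures. With a mean of at least 10 counts over the 4 Ssd1–HTP libraries required, 50 members and 2837 of all transcripts were tested with edgeR. At an adjusted p of 0.05, 0 of the 50 members were called, where 7.26% of all transcripts were called (3.81% higher and 3.45% lower). At an unadjusted p under 0.05, 7 members were higher and 1 was lower at 42°C, where 10.2% of all transcripts were higher and 10.2% lower. DESeq2 called 1 member, COX13, and 5.36% of all transcripts higher. With the clone as a block, edgeR called 4 members higher (SDH4, SDH6, QCR7 and COX13) and 0 lower, where 5.29% of all transcripts were called higher and 5.08% lower. Calls under the other settings named below stand beside 3.63% of all transcripts called higher with a count minimum of 1, 6.86% without the 30°C library of clone 3 and 2.45% without that of clone 4.

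The direction of the fitted values was less even. The fitted log2 fold change was above 0 for 40 of the 50 members, as it was for 53.2% of all transcripts tested. The median was 0.81 for the members and 0.13 for all transcripts. By complex, the medians were 2.46 for complex II (7 tested), 1.16 for complex III (9 tested), 0.80 for complex IV (15 tested) and 0.29 for ATP synthase (17 tested). A mean of at least 10 counts was reached by 35 of the 59 members in the 30°C libraries alone and by 54 in the 42°C libraries alone, so transcripts near 0 at 30°C could enter through the 42°C libraries, and these counts and medians are descriptions only. Among transcripts with a mean of at least 50 counts, the median was 0.34 for 15 members and 0.23 for all.

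**Figure D2:**
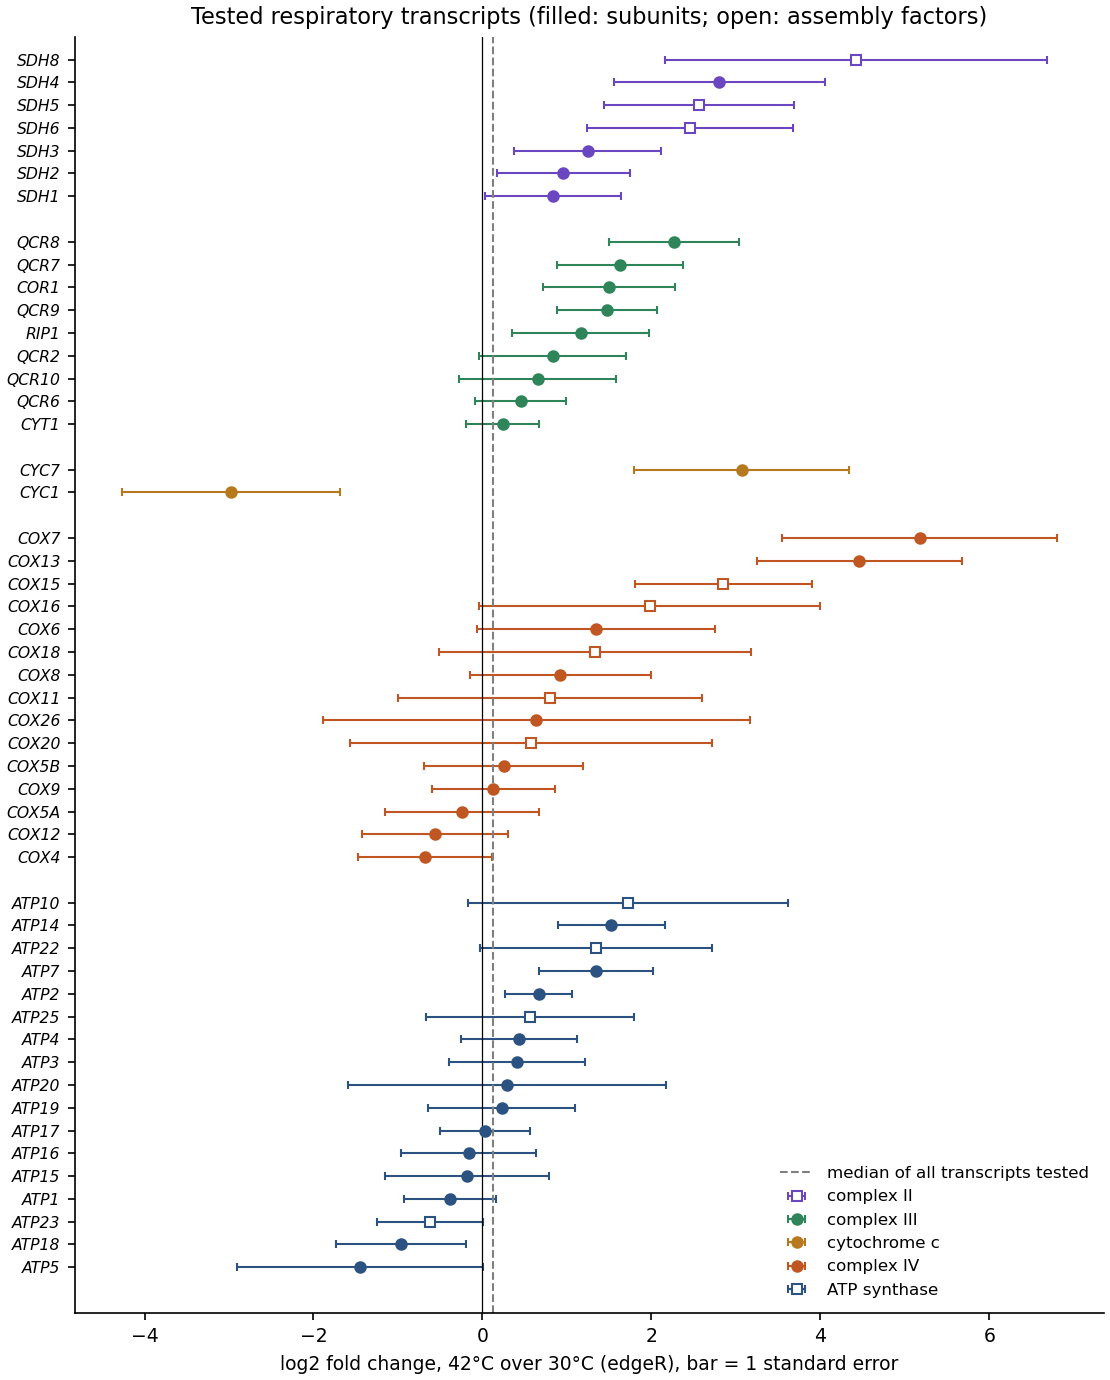
Fitted log2 fold change at 42°C over 30°C (edgeR) for the 50 tested members, grouped by complex, with bars of 1 standard error. Filled circles are subunits, open squares are assembly factors, and the dashed line is the median of all transcripts tested (0.13). All tested transcripts of complexes II and III lie above 0, those of complex IV and ATP synthase lie on both sides, and the values of SDH8 and COX7 rest on 1 count at 30°C.

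Complex II had the highest median over all its tested members. Its subunits alone had 1.10, against 1.16 for complex III, which has no assembly factor among the members. SDH4, SDH5 and SDH8 had means of 7, 3.5 and 0.5 counts at 30°C, so they passed the minimum through the 42°C libraries. The membrane anchor SDH4 and the assembly factor SDH6 were called with the clone as a block but not without it. SDH4 (chromosome IV, positions 817848 to 818691, plus strand, build sacCer3) had 0 and 125 CPM at 30°C and 360 and 399 CPM at 42°C. Its log2 fold change was 2.81 (SE 1.25, adjusted p = 0.255), and the adjusted p with the block was 0.0141. Over all alternatives this adjusted p ran from 0.0141 to 0.413, and SDH4 was also called without the 30°C library of clone 4 (0.0345) and with a count minimum of 1 (0.0165). SDH6, needed to mature the iron–sulfur subunit (chromosome IV, 1233124 to 1233562, minus strand), had 119 and 0 CPM at 30°C and 507 and 181 CPM at 42°C. Its log2 fold change was 2.46 (SE 1.22, adjusted p = 0.320), and the adjusted p was 0.0413 with the block and 0.00593 without the 30°C library of clone 3, within a range of 0.00593 to 0.788. In both genes 1 of the 2 libraries at 30°C held 0 counts, and it was clone 3 for SDH4 and clone 4 for SDH6. SDH4 shares 107 nt with CSN9 on the other strand, which had 1 and 0 counts at 30°C and 0 and 8 at 42°C. SDH6 shares 151 nt with RGA2 on the other strand, whose counts were 3 and 20 at 30°C and 46 and 20 at 42°C. The sources used here do not say whether counting took account of strand.

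The other complex II transcripts had lower mean counts over the 4 Ssd1–HTP libraries than SDH4 and SDH6. SDH5, which attaches the flavin to the catalytic subunit, had 17.0 and 35.8 CPM at 30°C and 171 and 123 CPM at 42°C, with a log2 fold change of 2.57 (SE 1.12, adjusted p = 0.246). SDH8, a chaperone of the flavoprotein, was counted 1 and 0 times at 30°C and 11 and 36 times at 42°C, a ratio of pooled shares of 23.3 with an exact 95% counting interval of 3.98 to 939. SDH7, a further factor for the iron–sulfur subunit, had 0 and 0 counts at 30°C and 12 and 19 at 42°C, at least 2.67-fold higher against 3 counts in each 30°C library. SDH5 and SDH7 overlap NBA1 (65 nt, 0 to 2 counts) and EMI1 (127 nt, 0 and 0, then 11 and 14 counts) on the other strand. All 4 assembly factors, of which 3 were tested, had both 42°C libraries above both 30°C libraries. Of all transcripts tested, which leave out SDH7, 27.2% had this order. For SDH7 and SDH8 this order rests on 0 or 1 count in each 30°C library. Of the subunits, SDH1, the flavoprotein, had 79.1 and 152 CPM at 30°C and 206 and 179 CPM at 42°C (log2 fold change 0.84, SE 0.80, adjusted p = 0.682). SDH2, the iron–sulfur subunit, had 84.8 and 197 CPM at 30°C and 377 and 148 CPM at 42°C, so that its temperatures overlapped. SDH3, the other membrane anchor, had 79.1 and 71.5 CPM at 30°C and 183 and 157 CPM at 42°C (log2 fold change 1.25, SE 0.87, adjusted p = 0.521).

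Complex III was represented by structural subunits only, and all 9 were tested. Both 42°C libraries lay above both 30°C libraries in 6 of them, where 27.2% of all transcripts tested did so, and in none did both lie below. The catalytic subunit cytochrome c1, CYT1 (chromosome XV, 447222 to 448896, plus strand), had the most counts at 30°C, with 740 and 796 CPM. At 42°C it had 955 and 764 CPM, and the log2 fold change was 0.24 (SE 0.43, adjusted p = 0.852). QCR7 (chromosome IV, 1495975 to 1496590, minus strand), a small subunit that contacts cytochrome b, had 588 and 98.4 CPM at 30°C and 1233 and 856 CPM at 42°C. Its log2 fold change was 1.63 (SE 0.75, adjusted p = 0.270). The adjusted p was 0.0361 with the clone as a block, 0.0375 with a count minimum of 1 and 0.00586 without the 30°C library of clone 3, in a range of 0.00586 to 0.495. The spread at 30°C was set by clone 4, in which QCR7 had 11 counts. The QCR7 interval shares 25 nt with that of HLR1 on the other strand, which had 263 and 182 counts at 30°C and 157 and 509 at 42°C.

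QCR8 and QCR9, small membrane subunits of complex III, had an unadjusted p under 0.05. QCR8 (chromosome X, 106368 to 106887, plus strand) had 67.8 and 53.7 CPM at 30°C and 301 and 261 CPM at 42°C. Its log2 fold change was 2.27 (SE 0.77, adjusted p = 0.130), with a log2 ratio of CPM plus 10 of 2.09 in clone 4 and slightly less in clone 3. QCR9 had 136 and 268 CPM at 30°C and 484 and 549 CPM at 42°C (log2 fold change 1.47, SE 0.59, adjusted p = 0.208). Both overlap a neighbour on the other strand. HAL5, which shares 119 nt with QCR8, had 34 and 14 counts at 30°C and 20 and 110 at 42°C, and TIM13, which shares 81 nt with QCR9, had 0 to 13. Larger differences between clones were seen for the core protein COR1 and the Rieske iron–sulfur protein RIP1. COR1 had 232 and 53.7 CPM at 30°C and 330 and 443 CPM at 42°C (log2 fold change 1.50, SE 0.78, adjusted p = 0.347). RIP1 had 147 and 71.5 CPM at 30°C and 165 and 293 CPM at 42°C (log2 fold change 1.16, SE 0.81, adjusted p = 0.518). QCR6, the acidic hinge protein, had 390 and 268 CPM at 30°C and 436 and 418 CPM at 42°C, with a log2 fold change of 0.46 (SE 0.54, adjusted p = 0.748). It shares 230 nt of the same strand with PHO4 (39 and 24, then 35 and 34 counts), so reads there could count for both. The temperatures overlapped for QCR2, the other core protein, and for QCR10.

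The genes for cytochrome c lay in opposite directions in both clones, although neither passed the test. CYC1 (chromosome X, 526289 to 526838, plus strand) encodes the main form in aerobic cells and CYC7 (chromosome V, 79525 to 80157, minus strand) the form known from low oxygen. CYC1 had 124 and 152 CPM at 30°C and 17.7 and 14.5 CPM at 42°C, from 3 and 6 counts. Its log2 fold change was -2.98 (SE 1.29, adjusted p = 0.242), the lowest of the 50 members, and CYC1 was the one member with an unadjusted p under 0.05 in the lower direction. CYC7 had 50.9 and 0 CPM at 30°C and 189 and 252 CPM at 42°C. Its log2 fold change was 3.07 (SE 1.27, adjusted p = 0.222), and without the 30°C library of clone 3, which leaves the library with 0 counts, the adjusted p was 0.0146 (range over the alternatives 0.0146 to 0.515). At 30°C the counts on CYC1 exceeded those on CYC7 in both clones (22 against 9 and 17 against 0), and at 42°C those on CYC7 exceeded those on CYC1 in both (32 against 3 and 104 against 6). The coding sequences are related, so reads could have been assigned between them. Both intervals overlap a neighbour on the other strand, CYC7 by 31 nt with UTR2 and CYC1 by 26 nt with UTR1. UTR2 had 56 and 34 counts at 30°C and 2 and 28 at 42°C, and UTR1 had 4 and 7, then 22 and 24.

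In the other isoform pairs no tested gene had an unadjusted p under 0.05. COX5A, the form of complex IV subunit 5 used when oxygen is plentiful, had 113 and 125 CPM at 30°C and 100 and 89.5 CPM at 42°C (log2 fold change -0.24, SE 0.91, adjusted p = 0.938). COX5B, the form used when oxygen is scarce, had 56.5 and 215 CPM at 30°C and 201 and 104 CPM at 42°C, with temperatures that overlapped and clones that moved in opposite directions. Its log2 fold change was 0.25 (SE 0.94, adjusted p = 0.938). SDH9 had 0 and 5 counts at 30°C and 9 and 0 at 42°C, below the minimum for a test, while SDH1 had counts in all 4 libraries. Both of these pairs are paralogs, so the division of their reads is uncertain.

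**Figure D3:**
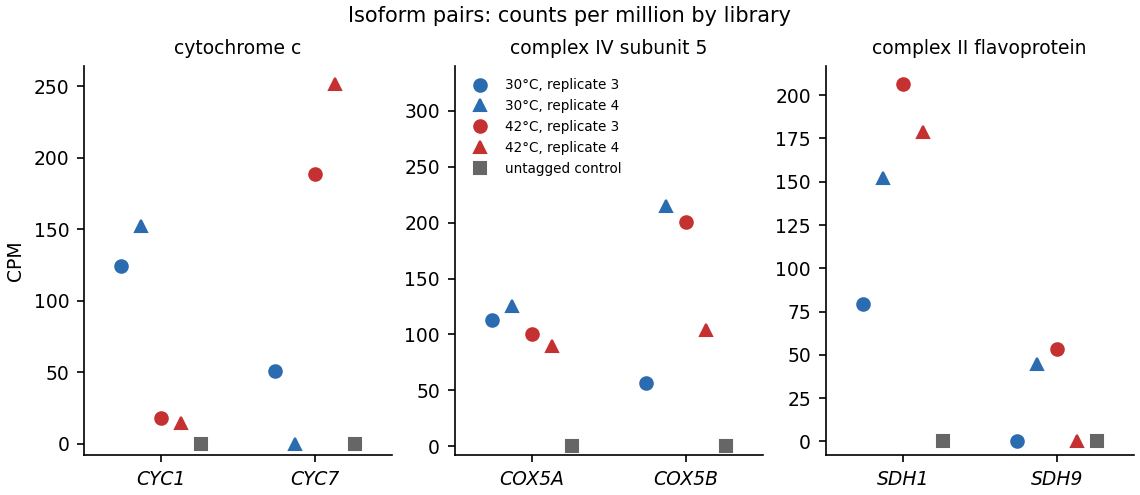
CPM (linear axis) of 3 isoform pairs in the 5 libraries. Circles are clone 3, triangles clone 4 (replicates 3 and 4) and squares the untagged control, in which a 0 allows up to 765 CPM. CYC1 is above CYC7 in both 30°C libraries and below it in both 42°C libraries, COX5A is slightly lower in both 42°C libraries, and COX5B overlaps between temperatures.

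Complex IV held the members with the lowest adjusted p. COX13 (chromosome VII, 144772 to 145441, plus strand), a small subunit at the edge of the enzyme, had 22.6 and 0 CPM at 30°C, from 4 and 0 counts, and 389 and 184 CPM at 42°C. Its log2 fold change was 4.46 (SE 1.21, adjusted p = 0.0680), just over the threshold of 0.05. COX13 was called by DESeq2 (adjusted p = 0.0128), with the clone as a block (0.0107), with a count minimum of 1 (0.00327) and without the 30°C library of clone 3 (0.00843), and its adjusted p over all alternatives ran from 0.00327 to 0.314. COX7, another small subunit, had 0 and 1 count at 30°C and 21 and 69 counts at 42°C. The ratio of pooled shares was 44.6, with an exact 95% counting interval of 7.80 to 1780, and the adjusted p was 0.110. Both genes were thus near 0 at 30°C in both clones and were counted in both clones at 42°C. No interval of the table overlaps COX13. COX7 overlaps GFD1 by 72 nt on the other strand, and GFD1 had 11 and 2 counts at 30°C and 5 and 23 at 42°C.

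The other complex IV subunits had smaller fitted changes, in both directions. COX9, the subunit with the most counts, had 243 and 125 CPM at 30°C and 236 and 155 CPM at 42°C (log2 fold change 0.13, SE 0.73, adjusted p = 0.962). COX6 had 0 and 179 CPM at 30°C and 201 and 206 CPM at 42°C, so that both 42°C libraries were above, but clone 4 by little (log2 fold change 1.35, SE 1.41, adjusted p = 0.703). COX8, another small subunit, had 107 and 26.8 CPM at 30°C and 112 and 133 CPM at 42°C, also with both 42°C libraries above. COX4 lay lowest of the complex IV members, with 198 and 197 CPM at 30°C and 159 and 79.8 CPM at 42°C (log2 fold change -0.68, SE 0.79, adjusted p = 0.746). COX4 and COX5A were the tested complex IV members with both 42°C libraries below both 30°C libraries, where 25.7% of all transcripts tested had this order.

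Among the complex IV assembly factors, COX15 had the most counts and the lowest adjusted p. COX15, which with COX10 makes the heme A of the enzyme, had 17.0 and 35.8 CPM at 30°C and 183 and 172 CPM at 42°C, from 3, 4, 31 and 71 counts. Its log2 fold change was 2.85 (SE 1.05, adjusted p = 0.165). COX15 (chromosome V, 453429 to 455158, plus strand) shares 200 nt of the same strand with EMP65, which had 3 and 9 counts at 30°C and 32 and 57 at 42°C, so reads from the shared stretch could count for both. COX10 had 4 and 3 counts at 30°C and 2 and 1 at 42°C, below the minimum. COX11 and COX17, which deliver copper, and COX18 and COX20, which handle the Cox2 protein, had 0 to 15 counts at 30°C. COX17 had 2 and 20 counts at 42°C, and the untested COX14 and COX19 had 11 and 0 and 7 and 0 counts at 30°C and 1 and 22 and 2 and 23 at 42°C. None of the complex IV assembly factors had more than 71 counts in a library, and COX23 had 0 counts in all 5.

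ATP synthase had the largest summed share of counts and the ratio between temperatures nearest to 1. ATP2 (chromosome X, 647414 to 649370, plus strand), the catalytic beta subunit, had 1396 and 1011 CPM at 30°C and 1964 and 1657 CPM at 42°C. It held 13.4% of all member counts at 30°C and 13.5% at 42°C. Both 42°C libraries were higher, but the log2 fold change of 0.66 (SE 0.40) had an adjusted p of 0.440. ATP1, the alpha subunit that pairs with it, had 441 and 930 CPM at 30°C and 413 and 551 CPM at 42°C (log2 fold change -0.38, SE 0.55, adjusted p = 0.809). ATP2 shares 188 nt of the same strand with DMO1, which had 45 and 48 counts at 30°C and 50 and 165 at 42°C.

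Of the 17 ATP synthase members tested, 4 had both 42°C libraries above both 30°C libraries, 0 had both below and 13 overlapped. Of all transcripts tested, 27.2% lay above and 25.7% below in this way. The stalk subunit ATP14 had 107 and 206 CPM at 30°C and 501 and 346 CPM at 42°C (log2 fold change 1.52, SE 0.63, adjusted p = 0.224), and it was the 1 member of this complex with an unadjusted p under 0.05. ATP7, which belongs to the same peripheral stalk, had 113 and 134 CPM at 30°C and 271 and 312 CPM at 42°C (log2 fold change 1.34, SE 0.67, adjusted p = 0.325). ATP4, the stalk subunit anchored in the membrane, had 288 and 134 CPM at 30°C and 354 and 203 CPM at 42°C (log2 fold change 0.43, SE 0.69, adjusted p = 0.831). ATP5, at the top of the stalk, differed most between clones, with 5.65 and 438 CPM at 30°C and 35.4 and 104 CPM at 42°C (log2 fold change -1.45, SE 1.46, adjusted p = 0.691). In ATP5 the clones had opposite signs, and in the other 3 stalk subunits named here both clones were higher at 42°C.

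The remaining ATP synthase members spanned a log2 fold change of -0.96 to 1.73. ATP18, a small membrane subunit, had the lowest of these, with 345 and 170 CPM at 30°C and 177 and 82.2 CPM at 42°C (log2 fold change -0.96, SE 0.77, adjusted p = 0.593). It was lower at 42°C within each clone, but the temperatures overlapped. ATP23, which processes and assembles the mitochondrially encoded Atp6 protein, was the assembly factor with the most counts, at 413 and 599 CPM at 30°C and 177 and 416 CPM at 42°C (log2 fold change -0.62, SE 0.63, adjusted p = 0.696). ATP10, another Atp6 factor, had 5 and 1 counts at 30°C and 10 and 26 at 42°C, and shares 1729 nt of the same strand with CST9, so its counts are uncertain. ATP22, which promotes translation of the ATP6 mRNA, had 136 and 0 CPM at 30°C and 248 and 106 CPM at 42°C. Its log2 fold change was 1.34 (SE 1.37, adjusted p = 0.697), and it was called without the 30°C library of clone 3 (adjusted p = 0.0353, in a range of 0.0353 to 0.981). The F1 chaperones ATP11 and ATP12 were under the minimum, with 17 and 1 and 17 and 0 counts at 30°C and 0 and 8 and 11 and 11 counts at 42°C.

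Agreement between the clones was partial. Of the 50 tested members, 25 had a higher CPM at 42°C in both clones, 7 a lower CPM in both and 18 neither. Of all transcripts tested, 33.9% were higher in both and 31.1% lower in both. The 18 had opposite signs, apart from COX26, which had 0 counts in clone 3 at both temperatures. Both 42°C libraries were above both 30°C libraries in 23 members, below in 3 (CYC1, COX4 and COX5A) and overlapping in 24. Of all transcripts tested, 27.2% lay above and 25.7% below in this way. The higher order was seen in 6 of 7 in complex II, 6 of 9 in complex III, 6 of 15 in complex IV and 4 of 17 in ATP synthase. Members near 0 at 30°C could pass the count minimum through the 42°C libraries, so these counts are descriptions only. The 2 clones had similar changes for COX13 (log2 ratios of CPM plus 10 of 3.61 and 4.28), for COX7 (3.74 and 3.22) and for SDH3 (1.11 and 1.04). They differed for SDH4 (5.21 and 1.60), for SDH6 (2.01 and 4.26) and for CYC7 (1.71 and 4.71). All of these but SDH3 had 0 counts in 1 of the 30°C libraries.

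**Figure D4:**
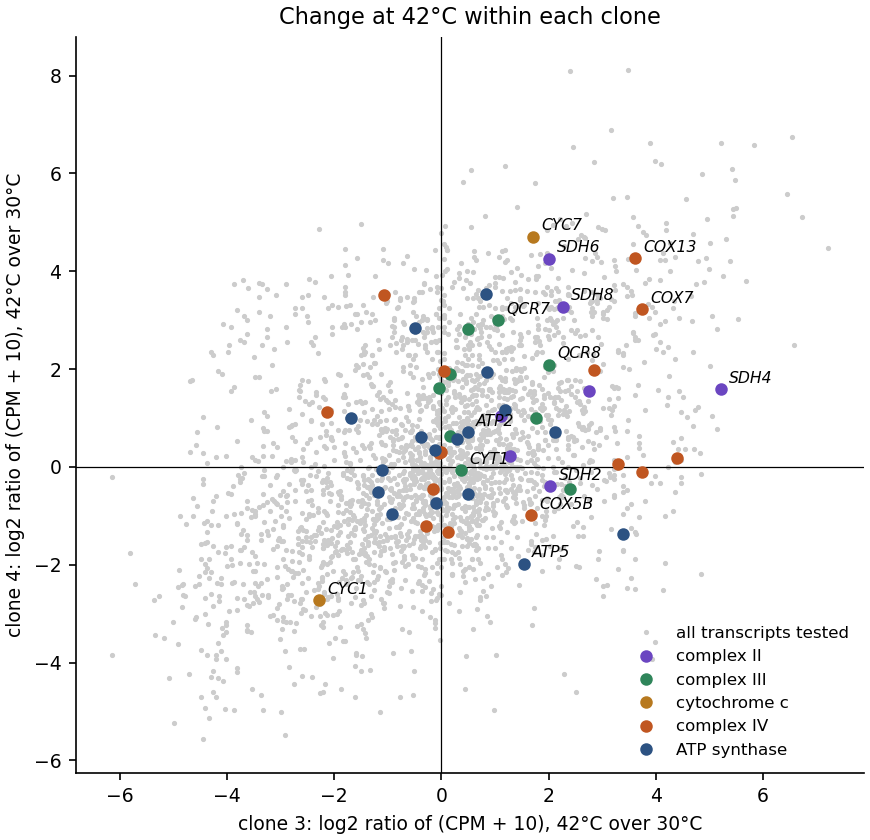
Log2 ratio of (CPM + 10) at 42°C over 30°C in clone 3 (horizontal) against clone 4 (vertical), for the 50 tested members by complex and for all 2837 transcripts tested (grey). Points in the upper right are higher at 42°C in both clones, as are 25 members, and CYC1 is in the lower left with -2.28 and -2.72.

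Length-corrected density gave a different view of level from the counts, since the members are short (median 761 nt against 1499 nt for all transcripts). Density is given in TPM, the counts per nucleotide of each interval scaled to a common total over the 5090 intervals. The median density of the members was 127 TPM at 30°C and 254 TPM at 42°C, against 40.3 and 36.3 TPM for all transcripts. The median of all transcripts was exceeded by 48 of the 59 members at 30°C and by 53 at 42°C. Subunits had a median of 221 TPM at 30°C and 314 TPM at 42°C, and assembly factors 45.6 and 85.2 TPM. Of the 59, 18 were among the 500 transcripts of highest density, out of 5090, at 30°C and 31 at 42°C. In the untagged control, the 7 members with counts had 814 TPM (ATP1) to 4282 TPM (ATP18), and the other 52 had 0 counts. Density by itself therefore does not show binding of Ssd1. QCR7, at 2026 TPM, was the 1 member among the top 100 at 42°C, with rank 81, and 0 were among the top 100 at 30°C. Complex III had the highest median of the complexes at 42°C, with 612 TPM, and its 9 subunits ran from 209 TPM (QCR2) to 2026 TPM.

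Among 64 other genes of the pathway, 35 were tested and 1 was called, which is not above the 7.26% called among all transcripts. STF2, whose protein stabilises the complex of ATP synthase with its inhibitor, had 136 and 161 CPM at 30°C and 832 and 1183 CPM at 42°C. The STF2 interval shares 130 nt with that of ECT1 on the other strand. ECT1 had log2 ratios of CPM plus 10 of 1.66 in clone 3 and 1.55 in clone 4. The log2 fold change of STF2 was 2.88 (SE 0.54, adjusted p = 0.0190), and its CPM rose in both clones. The call was lost without the 30°C library of clone 4 (adjusted p = 0.0763) and without the 42°C library of clone 4 (0.0610). STF1, an inhibitor of the ATP-hydrolysing activity, had 45.2 and 0 CPM at 30°C and 377 and 174 CPM at 42°C. It was called with the clone as a block (adjusted p = 0.0351) and not without it (0.150), and its adjusted p ran from 0.00932 to 0.497 over the alternatives. All 4 tested genes among the regulators and associated proteins of ATP synthase had both 42°C libraries above both 30°C libraries. This order was seen in 27.2% of all transcripts tested. Among these genes, INH1 was nearly level in clone 4, with 152.03 CPM at 30°C and 152.36 CPM at 42°C. In clone 3 INH1 had 84.8 CPM at 30°C and 242 CPM at 42°C. STF1 and TIM11 had means of 4 and 8.5 counts at 30°C, so they passed the count minimum through the 42°C libraries. The order of these genes is therefore a description only. The median log2 fold change over the 35 was 0.39, between those of the members and of all transcripts.

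Taken against all members together, genes of related mitochondrial functions had smaller or opposite differences. The 69 mitochondrial ribosomal proteins held 0.426% and 0.323% of counts at 30°C and 0.283% and 0.244% at 42°C, a ratio of 0.704. In them 25 were tested and 0 were called, where 7.26% of all transcripts were called, and the median log2 fold change was -0.54. The 11 enzymes of the TCA cycle held 0.250% and 0.261% at 30°C and 0.377% and 0.260% at 42°C, higher at 42°C in clone 3 and about equal in clone 4. All 11 were tested and 0 were called, beside the same 7.26% of all transcripts. The median was 0.50, above the 0.29 of ATP synthase. With the clone as a block 1 was called, CIT1, the citrate synthase, which had 113 and 125 CPM at 30°C and 684 and 455 CPM at 42°C (adjusted p = 0.0475 with the block, 0.0502 without it, range over the alternatives 0.0102 to 0.247). With the block, 5.29% of all transcripts were called higher and 5.08% lower, so the call of CIT1 sets the TCA cycle list apart in no way. The relation of both lists to the members was not tested.

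Most members were at or below what the shallow untagged control could show. Only 7 of the 59 had any control counts, which were 10 for CYT1, 6 for ATP1, 5 each for QCR6, ATP4, ATP18 and ATP23, and 3 for ATP17. The control counts were clumped, with 560 transcripts counted at all and a median of 5 counts on those. All 7 took a smaller share of the Ssd1–HTP libraries than of the control, with ratios of 0.166 to 0.522 at 30°C and 0.102 to 0.505 at 42°C. As 3 control counts already equal 765 CPM, members picked for having control counts lean toward ratios below 1. No depletion can be read from these ratios. The other 52 had 0 control counts, which allows up to 765 CPM, and their summed share was 0.583% at 30°C and 1.06% at 42°C. Of these 52, ATP2 exceeded the limit at 30°C, and ATP2 and QCR7 did at 42°C. Against a limit of 3 control counts, the mean of ATP2 was 1.57-fold higher at 30°C and 2.37-fold at 42°C, and that of QCR7 1.37-fold at 42°C. The exact 95% upper limit of a 0 in the control was higher, at 0.0940%, and QCR7 in clone 4 held 0.0856% at 42°C. Both limits cover counting error only, while the control counts were clumped. For all other members without control counts the control was too shallow to show a difference.

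The test against the control called none of the members. With total counts as library sizes, 35 members were tested at 30°C and 54 at 42°C, and 0 were called at either temperature. At an unadjusted p under 0.05, 1 member was higher and 2 were lower at each temperature, where the shares of all transcripts were 3.59% higher and 8.55% lower at 30°C and 4.2% and 8.27% at 42°C. Of all transcripts, 0.887% were called higher and 2.44% lower at 30°C, and 1.15% higher and 3.15% lower at 42°C. ATP2 had an adjusted p of 0.126 at 30°C and 0.0575 at 42°C. With TMM scaling the split of all calls turned, from 20 higher and 55 lower to 77 higher and 1 lower at 30°C, and from 35 higher and 96 lower to 200 higher and 3 lower at 42°C. As shares of the transcripts tested, these TMM calls were 3.41% and 0.0443% at 30°C and 6.57% and 0.0985% at 42°C. Under TMM, ATP2 was called higher at 30°C, and ATP2 and QCR9 at 42°C. The adjusted p of ATP2 over all alternatives ran from 0.0142 to 0.192 at 30°C and from 0.00585 to 0.0649 at 42°C. ATP18 was called lower than the control by DESeq2 (adjusted p = 0.0441) and without the 42°C library of clone 3 (0.0363), in a range of 0.0363 to 0.723, where 6.34% and 5.29% of all transcripts were called lower. With 1 control library, the spread in this test came from the Ssd1–HTP libraries. At 42°C the tag and the temperature cannot be told apart.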

How the data were processed

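CRAC reads from 5 libraries were processed by the authors. They removed 3′ adapters, separated barcodes, collapsed PCR duplicates by insert and random barcode sequence, aligned reads with Novoalign to the yeast genome, and counted reads per transcript with bedtools. SAMtools and the build sacCer3 are named in the submitters' processing notes. The deposited counts are raw whole numbers for 5090 transcripts, 4212 with mapped ends and 878 with default ends, and 2 members have default ends. The sources used here do not say whether counting used strand.

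Loci were named through RefSeq, with 5090 of 5090 matched. Shares, CPM and TPM were computed from the counts. The temperatures were compared with edgeR 4.0.16 (quasi-likelihood test, TMM, no block) on 2837 transcripts with a mean of at least 10 counts over the 4 Ssd1–HTP libraries, with Benjamini-Hochberg adjustment over all of them. Each temperature was compared with the control using total counts as library sizes, fitting all 5 libraries. The script was tested on simulated counts. DESeq2 1.42.0, other scalings, count minimums of 1 and 50, the clone as a block, and leaving out each library were alternatives. Replicate numbers pair the samples, since a number marks one clone, whose 30°C and 42°C samples were pooled during library preparation. Across 2837 transcripts the differences between clones at 30°C and at 42°C had r of -0.0238. Intervals are exact (Clopper-Pearson, or its ratio form for 2 pooled shares) at 95% and cover counting error only.

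Named genes were the 3 with the most counts in each of complexes II, III, IV and ATP synthase, the isoform pairs, members with 5 or more control counts, members at the ends of a range, untested members with their counts, and other pathway genes that were called. QCR8, SDH3, SDH5, COR1, RIP1, COX8, COX15, ATP7, ATP14, ATP22, STF1 and CIT1 were added after their values were seen. The members and all lists were chosen with earlier results of these data known. No reference sequence was used, so motifs and proteins were not examined here.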

Additional observations from a re-analysis of the deposited data

How the results depend on the processing

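Fits between temperatures rest on 2 libraries per group, and at 30°C many members had fewer than 10 counts, so single libraries weigh heavily. In the 36 named transcripts, 333 alternative values of the log2 fold change gave 307 with the same direction and call, 17 that gained a call, 2 that lost it (both STF2) and 7 that changed sign. The sign changed for COX9 (-0.26 to 0.70 when a library was left out), COX5B (-0.45 to 1.46), ATP1 (-0.85 to 0.24), ATP4 (-0.0030 to 1.11) and ATP5 (-2.58 to 3.67).

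Between temperatures, the members called higher (0) became 3 with a count minimum of 1 (COX13, QCR7, SDH4), 1 with DESeq2, 4 with the replicate block, and 0 to 5 when a library was left out: ATP22, COX13, CYC7, QCR7 and SDH6 without the 30°C library of clone 3, and SDH4 without that of clone 4. The block changed no call of a member other than COX13, QCR7, SDH4 and SDH6. For all transcripts, 174 were called higher with a count minimum of 1 and 75 to 193 when a library was left out. DESeq2 called 164 lower, and leaving out a library gave 33 to 121. The median log2 fold change of the members ran from 0.34 to 1.12.

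At 30°C against the control, all transcripts called higher numbered 77 with TMM, 47 with a count minimum of 50 and 32 with 1. Those called lower numbered 1 with TMM, 164 with a minimum of 1, 133 with DESeq2 and 26 to 78 without a library. ATP2 was the 1 member called higher with TMM and with minimums of 50 and 1. At 42°C against the control, those called higher numbered 200 with TMM, 64 with a minimum of 1 and 61 to 68 without a library. Those called lower numbered 3 with TMM, 53 with a minimum of 50, 215 with 1, 193 with DESeq2 and 124 to 179 without a library. Members called higher were 2 with TMM, and 1 (ATP2) with minimums of 50 and 1 and without either library. ATP18 was the 1 member called lower with DESeq2 and, in 0 to 1 calls, without a library.

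The summed share of the members was 0.675% at 30°C and 0.997% at 42°C without the top transcript of each complex, 0.531% and 0.670% without overlapping members (ratio 1.26), 0.784% and 1.15% for subunits only, and 1.24% and 1.89% as a share of density. The complex III ratio was 2.29 without CYT1, 1.48 without overlapping members, and 1.65 to 2.19 without a library. The cytochrome c ratio was 0.117 without CYC7. The ATP synthase ratio was 0.975 without ATP2, 1.03 without overlapping members, 1.14 for subunits only, 1.00 as density, and 1.07 to 1.15 without a library. The cause of these shifts was not tested, apart from the changed make-up of each sum.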
